A study of Mus musculus with 10 samples.

Results

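The clustered protocadherins are cell-surface adhesion proteins encoded side by side in an alpha, a beta and a gamma gene cluster, and were followed in midline cortex from embryonic day 14.5 mice with a conditional deletion of Rcor2. Members were all genes of the RNA-seq table whose symbol starts with Pcdha, Pcdhb or Pcdhg and whose mean over the 4 RNA libraries was at least 10 normalized counts (reads per gene divided by 1 factor per library). Of 16338 genes in the table, 54 carried such a symbol and 53 were members: 10 of the alpha, 21 of the beta and 22 of the gamma cluster. Just outside that threshold was Pcdha1, with a mean of 2.28 normalized counts, and the lowest member inside it was Pcdha8, with a mean of 20.8. RefSeq lists 58 such symbols; Pcdha4, Pcdha6, Pcdha7 and Pcdhb1 were not analysed here.

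The tested RNA came from 2 conditional knockout (cKO) libraries, labelled Rcor2f/f/EMX1-iCRE, and was set against 2 control libraries labelled Rcor2f/f; both groups are of strain C57/Bl6 and carry floxed Rcor2 alleles. Emx1-driven Cre is active in progenitors of the dorsal telencephalon and their offspring, so ventrally born interneurons, vessels and meninges in the dissected midline largely keep the gene. Chromatin immunoprecipitation with sequencing (ChIP-seq) used wild type C57/Bl6 midline of the same age, with 2 Rcor2 antibody libraries, 2 rabbit IgG libraries and 2 input libraries. Rcor2 is a scaffold of the CoREST repressor complex, which joins a histone demethylase and histone deacetylases. Nothing in the labels says that libraries of a group came from separate embryos or from pools, so each p-value measures the spread between these libraries only.

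Each alpha or gamma transcript joins 1 variable exon, with its own promoter, to a set of constant exons shared by the whole cluster, whereas each beta gene ends in its own variable exon. Single neurons switch on a small and largely random set of the alternate isoforms, a choice tied to CTCF, cohesin and DNA methylation at the promoters. The C-type isoforms (Pcdhac1, Pcdhac2, Pcdhgc3, Pcdhgc4 and Pcdhgc5) lie at the ends of the alpha and gamma clusters and are under less random control. The extracellular parts bind like to like, which lets a neuron tell its own branches from those of other cells and shapes dendrites, axons and neuronal survival. In RefSeq the members lie on chromosome 18, between bases 36930285 and 37841873 of GRCm38, in the order alpha, beta, gamma. The shared exons, the close likeness of the beta genes and the unstated use of strand make the count of any single isoform uncertain, since shared or antisense reads cannot be told apart from it.

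The RNA libraries held 28309925 and 29783893 reads in cKO and 30270598 and 27674987 in control, and the 53 members together took 0.0513 to 0.0605% of the normalized counts of a library. Rcor2 itself had 6363 and 6840 normalized counts in cKO and 7901 and 7257 in control (log2 change -0.20, SE 0.057, limma adjusted p 0.0541), short of the threshold of 0.05. It passed in the authors' deposited table (log2 change -0.19, adjusted p 0.0444), with DESeq2 on the recovered reads and without cKO replicate 2 (limma adjusted p 0.00960), and in none of the other 11 alternatives. Which exons were floxed is not stated, so a count over the whole gene is a weak check of the genotype. One library stood apart in its cell makeup: 6 markers of meninges and fibroblasts summed to 8333 normalized counts in cKO replicate 1 and 1777 in cKO replicate 2, against 1404 and 1220 in the controls. Choroid plexus markers summed to 130 and 98.8 in cKO and 82.9 and 64.9 in control, but its members went different ways: Folr1 was called higher (log2 1.09, limma adjusted p 0.0186), while Ttr had 9.25 and 5.87 normalized counts in cKO and 19.5 and 14.1 in control (log2 -1.07), which did not pass. Endothelial and microglial marker sums in cKO were 94.3% and 91.9% of the control mean.

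Across the family, 9 of 53 isoforms were lower in cKO and 0 were higher (0 at an unadjusted limma p under 0.05, and 0 by edgeR and DESeq2). The share called lower was 17.0%, against 8.29% of all 14324 tested genes, and the share called higher 0%, against 6.16%. The median log2 change was -0.27, against -0.01 over all tested genes, and 49 of the 53 values were below 0. In 35 isoforms both cKO libraries lay below both controls, and in 1, Pcdhb2, above both; among all tested genes 33.3% lay below and 27.7% above. Expressed as the sum over all 53, the level was 15233 and 14953 normalized counts in cKO and 17446 and 18115 in control, so that the cKO mean was 84.9% of the control mean.

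The number of isoforms called lower depended on the libraries and the tool. It was 8 without cKO replicate 1, the library with high fibroblast markers, where 5.83% of all tested genes were called lower, and 14 without cKO replicate 2, where 13.4% were. It was 2 without control replicate 1, where 0.761% were, and 0 without control replicate 2 (13 at an unadjusted limma p under 0.05), where 0.572% were. Calls over the whole table thus moved with the same libraries. It was 6 with edgeR on the recovered reads, where 6.47% of all genes were called lower, and 4 in the authors' deposited table (Pcdha10, Pcdha11, Pcdhga6 and Pcdhga11), where 6.73% were.

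**Figure D1:**
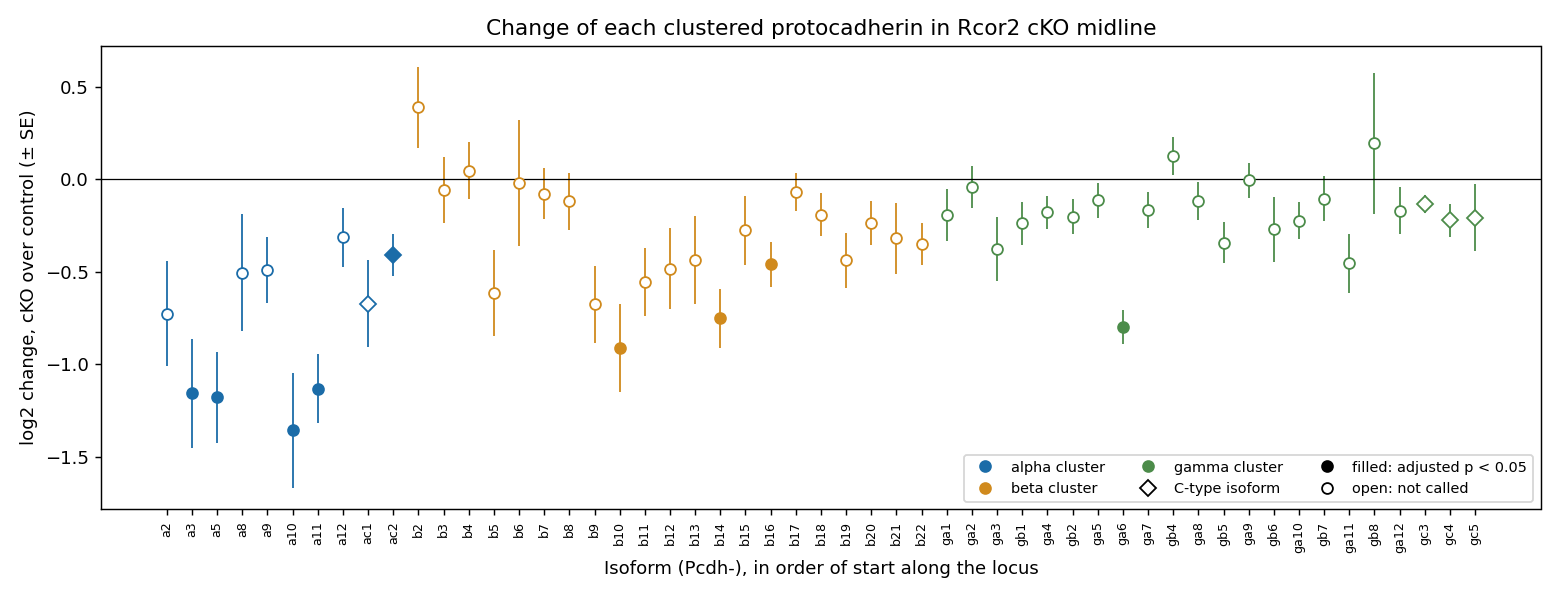
Log2 change, cKO over control, with its standard error, for each of the 53 isoforms in the order of their starts along the locus; filled symbols have a limma adjusted p under 0.05 and diamonds are C-type isoforms. The alpha isoforms at the left lie lowest, with a median of -0.70, the beta isoforms have a median of -0.32 and the gamma isoforms one of -0.19.

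The alpha cluster had the lowest values. In all 10 of its isoforms both cKO libraries lay below both controls, as they did in 33.3% of all tested genes. Of the 10, 5 were called lower (50%, against 8.29% of all tested genes), and the median log2 change was -0.70. Summed over the cluster, the level was 568 and 597 normalized counts in cKO and 923 and 931 in control, or 582 ± 20.8 against 927 ± 5.83 (SD, n = 2 each), which is 62.8% of the control mean. Of all reads counted on the 3 clusters, the alpha isoforms took 3.73 and 3.99% in cKO and 5.29 and 5.14% in control. Alpha proteins are known to depend on partner protocadherins to reach the cell surface, and their shared cytoplasmic part binds the WAVE complex, a regulator of actin.

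Among the alternate alpha isoforms, 4 of 8 were called lower (50%, against 8.29% of all tested genes). Pcdha11 had 50.4 and 47.0 normalized counts in cKO and 99.5 and 117 in control (log2 -1.13, SE 0.19, limma adjusted p 0.00895). Pcdha5 had 25.7 and 37.2 in cKO and 68.3 and 74.6 in control (log2 -1.18, SE 0.25, limma adjusted p 0.0189). Pcdha10 had 19.5 and 37.2 in cKO and 70.2 and 71.3 in control (log2 -1.36, SE 0.31, limma adjusted p 0.0249). In these 3 isoforms the controls lay close together and well above both cKO libraries, and the cKO mean was 40.1 to 45.0% of the control mean. Pcdha3 had 32.9 and 24.5 normalized counts in cKO and 50.7 and 82.2 in control (log2 -1.16, SE 0.30, limma adjusted p 0.0357), with the wider spread between the controls. These are low counts, from 19 recovered reads for Pcdha10 in cKO replicate 1 to 108 for Pcdha11 in control replicate 2. Pcdha3 and Pcdha5 did not pass in the authors' deposited table (adjusted p 0.0769 and 0.0585), Pcdha3 did not pass with edgeR, and none of the 4 passed when either control was left out.

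The other 4 alternate alpha isoforms had smaller differences that did not pass. Pcdha12, the highest of the alternate isoforms by count, had 104 and 94.0 normalized counts in cKO and 131 and 116 in control (log2 -0.31, SE 0.16, limma adjusted p 0.228). Pcdha2 had 22.6 and 35.2 in cKO and 50.7 and 44.3 in control (log2 -0.73, SE 0.28, limma adjusted p 0.126). Pcdha8 and Pcdha9 had log2 changes of -0.50 (SE 0.32) and -0.49 (SE 0.18). Within the cluster the share of counts on Pcdha10 was 3.44 and 6.23% in cKO and 7.61 and 7.67% in control, while that on Pcdha12 was 18.3 and 15.7% in cKO and 14.2 and 12.4% in control. Whether the alternate alpha isoforms differ from each other in their change was not tested.

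**Figure D2:**
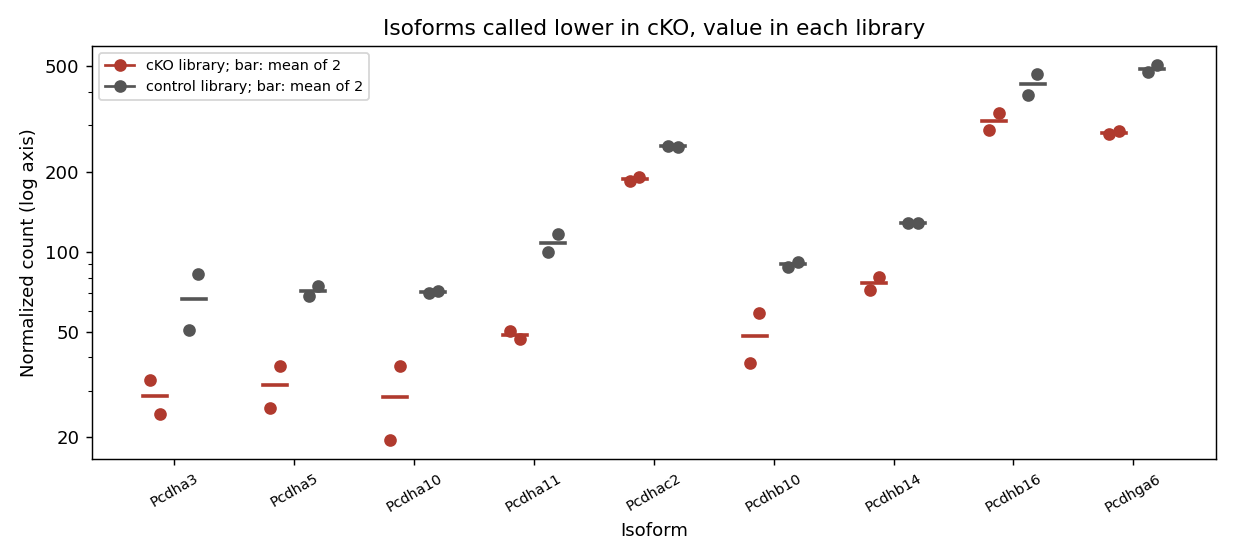
Normalized counts, on a log axis, of the 9 isoforms called lower in cKO; each point is 1 library and each bar the mean of 2 libraries. In each isoform both cKO points lie below both control points, and the cKO mean runs from 40.1% of the control mean in Pcdha10 to 75.3% in Pcdhac2.

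The beta cluster had intermediate values. Of 21 isoforms 3 were called lower, or 14.3% against 8.29% of all tested genes, and 13 lay below the controls in both cKO libraries, or 61.9% against 33.3%. The median log2 change was -0.32, and the summed level was 3087 and 3370 normalized counts in cKO and 3881 and 4020 in control, with a cKO mean of 81.7% of the control mean. Beta proteins have no shared constant part and carry short cytoplasmic tails of their own. Pcdhb14 had 72.0 and 80.3 normalized counts in cKO and 129 and 129 in control (log2 -0.75, SE 0.16, limma adjusted p 0.0193). Pcdhb10 had 38.0 and 58.7 in cKO and 87.8 and 91.9 in control (log2 -0.91, SE 0.24, limma adjusted p 0.0396). Pcdhb16 had 289 and 335 in cKO and 391 and 468 in control (log2 -0.46, SE 0.12, limma adjusted p 0.0413). The controls of Pcdhb14 and Pcdhb10 were nearly equal, and the cKO means were 59.2% and 53.9% of them. Pcdhb10 and Pcdhb16 each lost the call in 7 of 14 alternatives, one of them without cKO replicate 1 (log2 -0.60 for Pcdhb10), and Pcdhb14 in 4 of 14, and none of the 3 passed when either control was left out. None of the 3 passed in the authors' deposited table, with adjusted p-values of 0.0901, 0.125 and 0.0722 for Pcdhb14, Pcdhb10 and Pcdhb16.

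Of the 18 beta isoforms that did not pass, Pcdhb9 had the lowest log2 change, at 64.8 and 89.1 normalized counts in cKO and 110 and 135 in control (log2 -0.68, SE 0.21, limma adjusted p 0.0633). The highest was Pcdhb2, with 62.7 and 58.7 in cKO and 51.7 and 41.1 in control (log2 0.39, SE 0.22, limma adjusted p 0.270), the single member with both cKO libraries above both controls. Pcdhb19 and Pcdhb17, the beta isoforms with the most counts, had log2 changes of -0.44 (SE 0.15) and -0.07 (SE 0.10). Pcdhb19 had 343 and 466 normalized counts in cKO and 494 and 595 in control, and its groups did not overlap. Its log2 change was -0.22 without cKO replicate 1 and -0.66 without cKO replicate 2. Pcdhb17 had 407 and 409 in cKO and 394 and 466 in control, and its groups overlapped.

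Because beta genes are largely single-exon genes, their levels could be compared per kilobase of RefSeq gene span, which was not possible for the alpha and gamma genes, whose spans are mostly intron. In cKO the level ran from 8.57 normalized counts per kilobase for Pcdhb13 to 125 for Pcdhb17, and in control from 11.7 to 131 for the same isoforms. The highest 3 were Pcdhb17, Pcdhb19 and Pcdhb7 in both groups. Pcdhb17 and Pcdhb19 did not overlap in cKO (125 and 125 per kilobase against 72.9 and 98.8), but did in control (120 and 142 against 105 and 126). Pcdhb10 stood in place 19 of 21 in cKO and in place 15 in control, and Pcdhb14 in place 16 in cKO and 12 in control. Among isoforms from place 10 downwards in the controls the levels per kilobase lay between 11.7 and 40.2, so that small differences moved a place.

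The gamma cluster held most of the counts and had the smallest differences of the 3 clusters. Of 22 isoforms 1 was called lower, or 4.55%, which is under the 8.29% of all tested genes, and 12 lay below the controls in both cKO libraries, or 54.5% against 33.3%. The summed level was 11578 and 10986 normalized counts in cKO and 12642 and 13164 in control, with a cKO mean of 87.4% of the control mean. The called isoform was Pcdhga6, with 278 and 285 normalized counts in cKO and 474 and 507 in control (log2 -0.80, SE 0.093, limma adjusted p 0.00429). It had the smallest p of the whole family, passed in 13 of 14 alternatives to the test described here, and had an adjusted p of 0.0533 without control replicate 2. In the authors' deposited table its log2 change was -0.79 with an adjusted p of 4.74e-05. The isoforms whose starts lie on either side of it, Pcdhga5 and Pcdhga7, had log2 changes of -0.11 (SE 0.093) and -0.17 (SE 0.098) and did not pass. Of the cluster's counts Pcdhga6 took 2.40 and 2.59% in cKO and 3.75 and 3.85% in control.

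The other 21 gamma isoforms ranged from a log2 change of -0.45 in Pcdhga11 to 0.19 in Pcdhgb8. Pcdhga11 had 500 and 549 normalized counts in cKO and 590 and 875 in control (log2 -0.45, SE 0.16, limma adjusted p 0.0978), and passed in the authors' deposited table (adjusted p 0.0454). Its log2 change was -0.74 without control replicate 1 and -0.17 without control replicate 2. Its 2 controls were farther apart than the nearest control and cKO libraries. The 12 gamma A isoforms had a median of -0.17 and the 7 gamma B isoforms one of -0.20. Pcdhgb6, the alternate gamma isoform with the most counts, had 602 and 565 in cKO and 565 and 877 in control (log2 -0.27, SE 0.17, limma adjusted p 0.336), and its log2 change was 0.05 without control replicate 2.

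The C-type isoforms were followed as a group of their own. Of 5, 1 was called lower, or 20%, against 8.29% of all tested genes. The median log2 change was -0.22, against -0.93 for the 8 alternate alpha isoforms and -0.18 for the 19 alternate gamma isoforms. That median pools 2 clusters: Pcdhac1 and Pcdhac2 of alpha had -0.67 and -0.41. Pcdhgc3, Pcdhgc4 and Pcdhgc5 of gamma had -0.13, -0.22 and -0.21. The cKO libraries lay below the controls in each of the 5, as they did in 33.3% of all tested genes. Their summed level was 4177 and 3999 normalized counts in cKO and 4521 and 4623 in control, with a cKO mean of 89.4% of the control mean, and most of it came from Pcdhgc3.

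Pcdhac2, which serotonergic neurons need to space their axons, was the C-type isoform called lower. It had 184 and 192 normalized counts in cKO and 251 and 249 in control (log2 -0.41, SE 0.11, limma adjusted p 0.0474). The libraries of each group were nearly equal, but the call is marginal: it was lost in 8 of 14 alternatives, with an adjusted p up to 0.249 there, and the authors' deposited table gives an adjusted p of 0.241. Pcdhac1 had 40.1 and 32.3 in cKO and 63.4 and 53.0 in control (log2 -0.67, SE 0.24, limma adjusted p 0.0947).

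Pcdhgc3, which binds the Wnt pathway protein Axin1 and promotes dendrite branching of cortical neurons, had the highest counts of all members. It had 3529 and 3363 normalized counts in cKO and 3717 and 3837 in control (log2 -0.13, SE 0.048, limma adjusted p 0.106). Pcdhgc4, known for its part in neuronal survival, had 347 and 340 in cKO and 395 and 405 in control (log2 -0.22, SE 0.090, limma adjusted p 0.141). Pcdhgc5, which binds GABA-A receptors, had 77.1 and 72.4 in cKO and 94.6 and 78.9 in control (log2 -0.21, SE 0.18, limma adjusted p 0.493). In these 3 isoforms the groups did not overlap but the difference did not pass. Pcdhgc3 took 30.5 and 30.6% of the gamma counts in cKO and 29.4 and 29.1% in control. Within the alpha cluster Pcdhac2 took 32.4 and 32.1% in cKO and 27.2 and 26.7% in control.

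**Figure D3:**
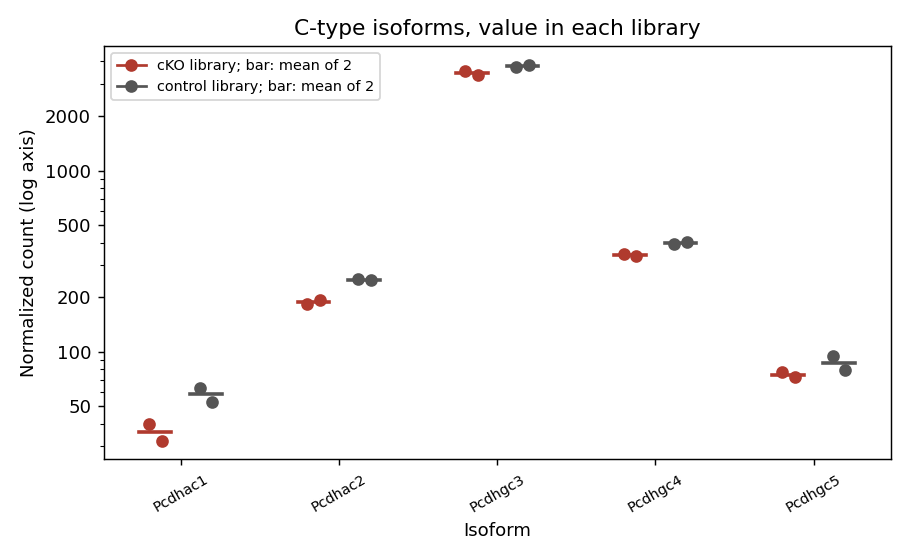
Normalized counts, on a log axis, of the 5 C-type isoforms; each point is 1 library and each bar the mean of 2 libraries. Both cKO points lie below both control points in each isoform, and Pcdhgc3 lies highest, at 3363 to 3837 normalized counts.

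Each cKO library was also set against the mean of the controls. The order alpha, beta, gamma in the size of the median difference held in both. For cKO replicate 1 and cKO replicate 2 the cluster medians were -0.79 and -0.76 for alpha, -0.35 and -0.23 for beta, and -0.16 and -0.21 for gamma. For the C-type isoforms they were -0.21 and -0.25. In cKO replicate 2 beta and gamma lay close together, also in their summed levels relative to the control mean. These were 3370 against 3951 for beta and 10986 against 12903 for gamma. In cKO replicate 1, the library with high fibroblast markers, the sums were 3087 for beta and 11578 for gamma. A clear step between beta and gamma was thus seen only in that library. Both libraries share the same controls, and the isoforms of a cluster share a locus. Those of the alpha and of the gamma cluster also share exons. The difference between clusters was not tested. The clusters also differ in level, since 18 members had a mean under 100 normalized counts, and 5 of these 18 (27.8%) were called lower, against 1.9% of all tested genes at that level. Among the 13 members with a mean of 100 to 300, 2 (15.4%) were called lower, against 6.56% of all tested genes, and among the 22 with a mean of at least 300, 2 (9.09%) were, against 10.3%.

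**Figure D4:**
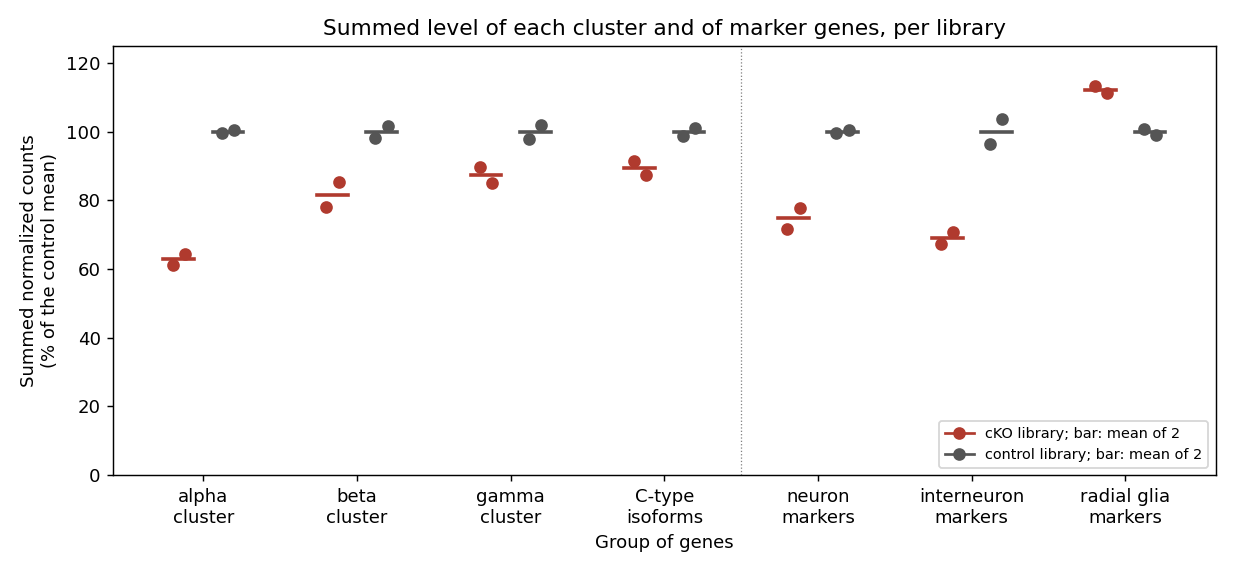
Summed normalized counts of each cluster, of the C-type isoforms and of 3 sets of marker genes in every library, as a percentage of the mean of the 2 control libraries. The cKO mean stands at 62.8% for alpha, 81.7% for beta, 87.4% for gamma and 89.4% for the C-type isoforms, beside 74.8% for neuron, 69.2% for interneuron and 112% for radial glia markers.

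Markers of neurons, the cells that express most clustered protocadherins, were lower in the same libraries. In bulk tissue, fewer neurons and less RNA per neuron cannot be told apart. Of 12 neuron markers 10 were called lower, against 8.29% of all tested genes, none was at 0, and their summed level was 131519 and 142626 normalized counts in cKO and 182612 and 184104 in control. The neuronal tubulin gene Tubb3 had a log2 change of -0.47 (SE 0.073), Mapt, which encodes tau, one of -0.75 (SE 0.062), and Rbfox3, a splicing factor of maturing neurons, one of -0.15 (SE 0.063), which did not pass. Of 9 tested markers of ventrally born interneurons, 4 were called lower (44.4%, against 8.29% of all tested genes). Their summed level was 2132 and 2243 in cKO and 3047 and 3279 in control. A further marker, Dlx6, had 2.93 to 8.23 normalized counts. Of 9 radial glia markers 5 were called higher, against 6.16% of all tested genes, with sums of 111781 and 109589 in cKO and 99433 and 97711 in control. Of 6 Cajal-Retzius markers 1, Ndnf, was called lower (16.7%, against 8.29% of all tested genes), and the log2 change was below 0 in 3 and above 0 in 3. Most of their summed level came from Reln, with 38055 and 42718 normalized counts in cKO and 47305 and 46009 in control (log2 -0.21, limma adjusted p 0.0610). Trp73 and Lhx1 lay above both controls in both cKO libraries (log2 0.17 and 0.44), and neither passed. The 2 tested blood markers, of which 1 was called lower (50%, against 8.29% of all tested genes), summed to 290 and 428 in cKO and 751 and 938 in control. The median log2 change was -0.41 for neuron markers and -0.53 for interneuron markers, beside -0.70, -0.32 and -0.19 for the alpha, beta and gamma clusters. The part of these markers in the protocadherin differences was not tested.

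Of 23 genes known to act on protocadherin promoter choice or chromatin, 2 were called higher (8.70%, against 6.16% of all tested genes) and 0 lower (0 at an unadjusted limma p under 0.05, and 0 by edgeR and DESeq2), with a median log2 change of 0.08. They were Dnmt3a, a de novo DNA methyltransferase, with 8789 and 7980 normalized counts in cKO and 6385 and 7213 in control (log2 0.30, SE 0.069, limma adjusted p 0.0245), and Rest, a repressor of neuronal genes, with 1754 and 1540 in cKO and 1347 and 1406 in control (log2 0.26, SE 0.072, limma adjusted p 0.0494). The call of Rest was lost in 6 of 14 alternatives, among them without cKO replicate 1 and without either control, and that of Dnmt3a in 2 of 14, without either control. Ctcf, which loops protocadherin promoters to their enhancers, had a log2 change of -0.01 (SE 0.046). Rad21, a subunit of the cohesin ring, had 0.12 (SE 0.050), and Smchd1, which silences clustered genes, 0.10 (SE 0.044). Dnmt3b, the methyltransferase that sets promoter methylation of the clusters in early embryos, had 0.09 (SE 0.13) and low counts, 219 and 195 in cKO and 207 and 182 in control. Ctcf, Rad21, Smchd1 and Dnmt3b did not pass.

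Of 19 genes for surface and signalling partners, 2 were called lower (10.5%, against 8.29% of all tested genes) and 0 higher (0 at an unadjusted limma p under 0.05, and 0 by edgeR and DESeq2), with a median of -0.09. Both belong to the WAVE complex. Of its other listed genes, Cyfip1 had a log2 change of 0.06, with both cKO libraries above both controls. Abi1, Nckap1 and Brk1 had log2 changes of -0.09, -0.08 and -0.05, and none of these other genes passed. Cyfip2 had 5229 and 5308 normalized counts in cKO and 6139 and 6238 in control (log2 -0.23, SE 0.043, limma adjusted p 0.0120). Abi2 had 7230 and 7692 in cKO and 8242 and 8682 in control (log2 -0.18, SE 0.050, limma adjusted p 0.0474), a call that was lost in 7 of 14 alternatives, edgeR, DESeq2 and leaving out cKO replicate 1 or either control among them. That of Cyfip2 was lost in 2 of 14, without either control. Ptk2, a focal adhesion kinase that clustered protocadherins inhibit, had a log2 change of -0.15 (SE 0.042, limma adjusted p 0.05002), just short of the threshold. The WAVE gene Wasf1 had one of -0.22 (SE 0.074, limma adjusted p 0.0851), and neither passed.

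Genes next to the clusters were measured for comparison. Within 500 kb of the locus 29 other genes were tested, of which 2 were called lower, or 6.90%, against 8.29% of all tested genes, with a median of -0.08. Their summed level in cKO was 96.2% of the control mean. The lower 2 were Pcdh1, a protocadherin outside the clusters (log2 -0.42, SE 0.10, limma adjusted p 0.0302), and Rnf14 (log2 -0.33, SE 0.055, limma adjusted p 0.00951). Taf7, a subunit of the general transcription factor TFIID, lies between the beta and gamma clusters and had a log2 change of -0.09 (SE 0.073). Diaph1 and Hdac3, next to the gamma end, had log2 changes of -0.01 (SE 0.057) and 0.00 (SE 0.045). None of these 3 passed.

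Some isoforms differed more between replicates than between genotypes. Pcdhgb8 had 326 and 198 normalized counts in cKO replicates 1 and 2 and 347 and 142 in control replicates 1 and 2, and its genotype difference was small beside that (log2 0.19, SE 0.38, limma adjusted p 0.772). Pcdhb6 had 116 and 65.6 in cKO replicates 1 and 2 and 121 and 64.9 in control replicates 1 and 2 (log2 -0.02, SE 0.34, limma adjusted p 0.976). In both isoforms the libraries numbered 1 were high and those numbered 2 low, in both genotypes. These 2 and Pcdhb19 were the 3 members whose 95% Poisson intervals of the recovered reads did not overlap between replicates in either genotype; the intervals cover counting error only.

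Between the controls alone the intervals were apart for 11 members, 8 of them gamma isoforms, and between the cKO libraries alone for 4. The intervals were computed for the members only, so no share over all tested genes stands beside these counts. They are narrower, relative to the count, where counts are high, as in the gamma cluster. The counts therefore do not set these isoforms, or the gamma cluster, apart from other genes. Control replicate 2 had the highest value of Pcdhgb6, Pcdhga11 and Pcdhga3, with 877, 875 and 598 normalized counts against 565, 590 and 405 in control replicate 1. The median absolute log2 difference between replicates was 0.15 in cKO and 0.19 in control for the members, beside 0.09 and 0.08 over all tested genes, which have higher counts. For the C-type isoforms it was 0.07 in cKO and 0.05 in control.

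**Figure D5:**
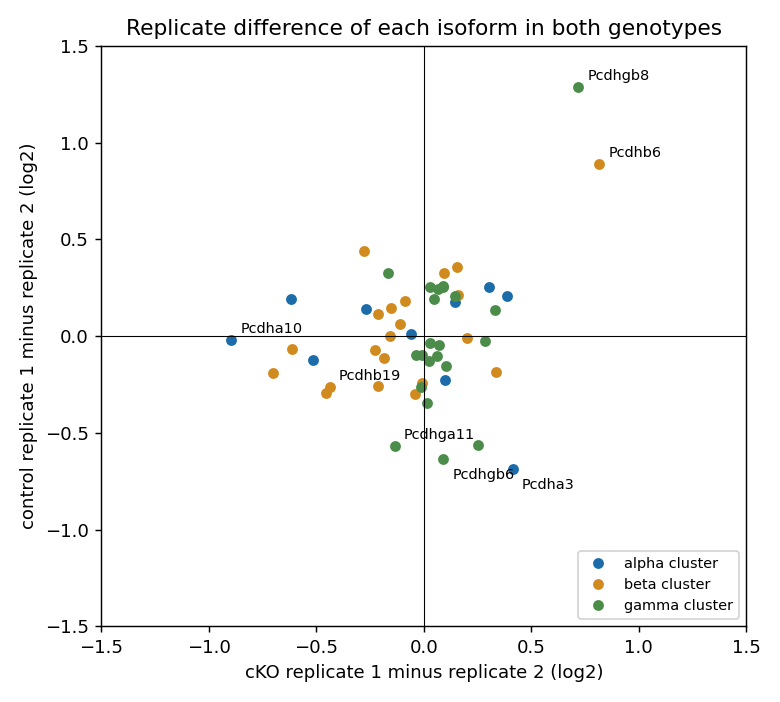
Difference between replicate 1 and replicate 2 on the log2 scale for each of the 53 isoforms, in cKO (horizontal axis) and in control (vertical axis), coloured by cluster. Pcdhgb8 (0.72 and 1.29) and Pcdhb6 (0.82 and 0.89) lie apart from the rest at the upper right, with replicate 1 higher in both genotypes.

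Rcor2 ChIP-seq peaks were looked up at the clusters, which span 912 kb. Whether peaks are rarer or denser there than over the genome was not tested. Of 6995 peaks in the authors' list 1 was named for a clustered protocadherin, Pcdha1, which was below the threshold of 10 (4 and 3 recovered reads in cKO, 1 and 1 in control), and 2 lay between the first start and the last end of the clusters. None of the 53 members had a peak named for it, against 20.9% of all tested genes. Most alpha and gamma genes overlap each other, however, and each of the 2 peaks carries only 1 name. The first peak (mm10 chromosome 18, 37148631 to 37148832) lies within the spans of all 11 alpha genes of the table, and its summit is 5132 bases after the start of Pcdhac2. Its height was 13 and 27 in the Rcor2 libraries, 8 and 5 in the IgG libraries and 9 and 9 in the input libraries. The caller's fold enrichment, the authors' value, was 3.89, against a median of 3.996 over all peaks.

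The second peak (mm10 chromosome 18, 37744881 to 37745038) was named for Gm37013, a predicted read-through gene, and its summit lies 2870 bases after the start of Pcdhgb6 and 2052 bases before that of Pcdhga10. Its height was 10 and 16 in the Rcor2 libraries, 4 and 4 in the IgG libraries and 7 and 9 in the input libraries, with a fold enrichment of 3.497. The ratio of mean Rcor2 to mean IgG height was 2.93 at the first peak and 3 at the second, against a median of 3.89 over all peaks, and that of Rcor2 to input 2.16 and 1.59, against a median of 1.33. Heights are not scaled for depth. Of the called isoforms, Pcdhac2 had the start closest to a summit. Neither peak reached a −log10 q of 10, as 1178 of all peaks did.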

How the data were processed

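Per the labels, RNA-seq covered 2 cKO and 2 control libraries and ChIP-seq 2 Rcor2, 2 IgG and 2 input libraries. HISAT2 2.1.0 and Trim Galore, with mouse build mm10, are listed in the submitters' processing notes. How genes were counted, from which annotation, whether strand was used and how peaks were called are points not given in the sources used here. The deposited RNA signal, per the file headers, is a normalized count per gene. In each library 100% of values were whole multiples of 1 step (tolerance 1e-04), from which whole reads were recovered. The authors' deposited table also gives log2 changes, a test score, p-values and the errors of the changes. Per the file headers, the deposited peak table gives a pileup signal, a height signal per library, a fold ratio and, by place and range, −log10 p and q.

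limma 3.58.1 (trend; R 4.3.3) was fitted to log2(normalized count + 1) for the 14324 genes whose mean reached 10 (2014 left out), two-sided, with no replicate block and Benjamini-Hochberg adjustment over all of them; called means an adjusted p under 0.05. The scale understates changes of low genes. Residual degrees of freedom were 2 and prior ones 6.21; the smallest p of an exact permutation test is 0.333 for 2 against 2 libraries. Alternatives were edgeR 4.0.16 and DESeq2 1.42.0 on recovered reads, TMM and quantile scaling, other pseudocounts (0.5, 8) and filters (none, 50), a replicate block and leaving out each library. Before heights were divided, 0.5 was added to each mean height. Gene positions are from RefSeq GRCm38.p6. Named genes were the called members, the C-type isoforms, the 2 members of each cluster with most counts, the uncalled extremes of each cluster, members named for a peak or next to the threshold, and the called genes of other lists; Pcdhb6, Pcdhga3, the neighbours of Pcdhga6, the uncalled regulators and partners, the neuron markers and the genes next to the locus were added after their values were seen. Members and lists were chosen with earlier results of these data known. Python 3.11.15 with matplotlib 3.10.9 drew the figures.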

Additional observations from a re-analysis of the deposited data

How the results depend on the processing

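With 2 libraries a group, calls rest on few degrees of freedom and most alpha isoforms on under 110 reads a library. Leaving out 1 library at a time, where the lone library of a group is assumed to vary like the other group, the members called lower numbered 0 to 14, those of alpha 0 to 6, of beta 0 to 6, of gamma 0 to 2 and of the C-type isoforms 0 to 1, beside 82 to 1921 genes called lower and 58 to 1532 called higher over the whole table; medians ranged from -0.33 to -0.25 for all members, -0.81 to -0.59 for alpha, -0.37 to -0.23 for beta and -0.34 to -0.21 for the C-type isoforms. No member was called higher under any alternative run.

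DESeq2 and the authors' test both called 4 members lower, of which 2 were alpha, 0 beta, 2 gamma and 0 C-type isoforms. With a mean of at least 50 the alpha count was 3. Quantile normalization and edgeR each called 1 beta isoform. The C-type count was 0 with TMM scaling and with no filter on low values. The replicate numbers could not be shown to pair the libraries, with only 2 pairs. Replicate differences correlated between the genotypes at 0.24 over 14324 genes and at 0.32 over the 53 members. With the replicate block 11 members were called lower, of which 5 were beta, 2 gamma and 0 C-type isoforms; Pcdhb9, Pcdhb19 and Pcdhga11 passed and Pcdhac2 did not.

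The median of all members was -0.26 with TMM scaling, -0.25 with quantile normalization, -0.25 with a pseudocount of 8 and -0.22 with a mean of at least 50; that of alpha was -0.76 with quantile normalization, -0.60 with a pseudocount of 8 and -0.49 with a mean of at least 50; that of the C-type isoforms was -0.25 with quantile normalization. Of named isoforms, the log2 change turned in sign for Pcdhb17 (-0.19 to 0.05 with a library left out), Pcdhgb6 (-0.59 to 0.05) and Pcdhgb8 (-0.45 to 0.84). It did so without control replicate 2 in all 3 and, at -0.17 for Pcdhgb8, also without cKO replicate 1. None of these was called. Regulators called higher numbered 1 with quantile normalization, edgeR and the replicate block, and 0 to 6 with a library left out. Partners called lower numbered 1 with TMM scaling, quantile normalization, edgeR and DESeq2, and 0 to 4 with a library left out; with quantile normalization 1 partner was called higher. With a pseudocount of 8 and with a mean of at least 50, 3 partners were called lower. The cause of these shifts was not tested. The 1 peak named for a clustered protocadherin, Pcdha1, which was under the threshold for members, did not reach a −log10 q of 10, which leaves 0. Dividing heights by each library's median over the peaks sets a typical peak to 1 in every library. The scaled heights so show only where a peak stands among the others. The ratio of Rcor2 to IgG was then 0.66 at the peak named for Pcdha1 and 0.691 at that named for Gm37013. That of Rcor2 to input was 1.68 and 1.25 at the same peaks, so the 2 references went different ways.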

Other observations

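Along the beta cluster the isoforms with lower values lay next to each other, a pattern picked out after the values were seen and given with no test. Of the 7 isoforms from Pcdhb2 to Pcdhb8, both cKO libraries lay below both controls in 1 and above them in 1, with a median log2 change of -0.06. Of the 14 from Pcdhb9 to Pcdhb22 the cKO libraries lay below in 12, with a median of -0.44, and from Pcdhb9 to Pcdhb16 they did so in 8 of 8. The 3 called beta isoforms all lie in that last stretch. Over the whole beta cluster the share below was 61.9%, and over all tested genes it was 33.3%. The limits of the stretches were set from these same values, so the counts within them test nothing. Across the 21 beta isoforms the Spearman correlation of the log2 change with the order along the locus was -0.29; across the 10 alpha isoforms it was 0.49 and across the 22 gamma isoforms 0.05. Isoforms of a cluster share libraries, and neighbours can share reads, so these are descriptions.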
